A study of Mus musculus with 4 samples.

Results

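Other glycinergic amacrine cells are the retinal cells with transcripts of the glycine transporter and of an inhibitory amacrine marker, but with none of the GABA-synthesis genes Gad1 and Gad2 and without Scn1a and Stac2, which mark AII-like cells here. A cell was taken when Slc6a9 was above 0, Slc32a1 or Tfap2b was above 0, and Gad1, Gad2, Scn1a, Stac2 and Slc17a6 were all at 0. It also needed Rp1 under 15 UMIs per 10000 and fewer than 3 of the Müller glial genes Rlbp1, Slc1a3, Aqp4, Sox9 and Dkk3 above 0. The rule found 675 of 26543 cells: 204 in the rolipram library, 186 in the BC11-38 library, 95 in the bleached vehicle library and 190 in the unbleached vehicle library. All 4 libraries came from 6-week-old Abca4-/-Rdh8-/- mice on the C57BL/6J background, which lack a photoreceptor lipid transporter and a retinol dehydrogenase, so no retina of wild-type mice stands beside them. In 3 libraries the mice were bleached by 30 min of white light at 10000 lux, and their retinae were collected at day 1. Of these, one received rolipram at 2 mg/kg, one received BC11-38 at 2 mg/kg and one received the DMSO vehicle, each by intraperitoneal injection 30 min before the light, after 24 h of dark adaptation and with pupils dilated by 1% tropicamide. The unbleached group had vehicle without the light, and whether its mice were also dark-adapted and dilated is not given in the sources used here. Each group is 1 library that pooled 4 retinae of 2 mice, so a group has no replicate and no cell can be assigned to a mouse. No p-value is given for that reason. The exact 95% intervals below cover counting error only, and not the variation between mice or libraries.

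Amacrine cells are the inhibitory interneurons of the inner retina. The glycinergic ones are mostly small-field cells that carry signals vertically between layers of the inner plexiform layer, and the AII cell, which relays rod signals into cone pathways through connexin 36 gap junctions, is the best known of them. Glycine is taken up by GlyT1, the product of Slc6a9, and loaded into vesicles by the transporter encoded by Slc32a1. Rolipram inhibits PDE4 enzymes and BC11-38 inhibits PDE11A, and both enzymes break down cyclic nucleotides, whose second messenger cAMP drives transcription through CREB at cAMP response elements.

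The libraries held 7894, 6143, 6809 and 5697 cells in the order rolipram, BC11-38, bleached vehicle and unbleached vehicle, with between 28983626 and 44386442 UMIs each (unique molecular identifiers, 1 per captured transcript). The glycinergic cells had a median of 4459, 5073.5, 5874 and 6966 UMIs in the same order, and single cells ranged from 669 to 33816. Levels below are CPM, the UMIs of a gene per 1000000 UMIs of the cells summed in a library. Of all cells, 92 barcodes occurred in more than 1 library, and 4 glycinergic cells carried such a barcode, none of them shared with another glycinergic cell. Xist transcripts were found in 52.5% of the glycinergic cells of the rolipram library, 41.9% of the BC11-38 library, 0% of the bleached vehicle library and 43.2% of the unbleached vehicle library. Cells with Y-linked transcripts were present in all 4. The sex of the pooled mice therefore differed between libraries. Treatment and library cannot be told apart in any comparison, and in those with bleached vehicle sex cannot be told apart from them either.

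The rule chose these cells by their values, so the following values describe the choice and support nothing. Slc6a9 had 1 UMI in 115 of the 675 cells and 2 or more in 560, with a median of 5 and a highest value of 32. Slc32a1 was found in 641 cells, Tfap2b in 176 and both in 142. The highest Rp1 value inside the rule was 13.3 per 10000 and the lowest just outside it was 25.2. Just outside, 277 cells failed only by Gad1 or Gad2, of which 107 failed by a single UMI, and 592 failed only by Scn1a or Stac2, of which 206 failed by a single UMI. Among rods (cells with Rp1 at 15 or more per 10000), which should lack Slc6a9, the gene had a UMI in 5.47% of cells with rolipram, 4.90% with BC11-38, 5.05% in bleached vehicle and 5.42% in unbleached vehicle, at rod median depths of 1249, 1464, 1410 and 1581 UMIs.

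Transcription factors led the genes that were higher in these cells than in all other cells of every library. Ebf3, an early B-cell factor family transcription factor (chromosome 7, 137193673 to 137314445 in mm10, minus strand), had 440, 337, 271 and 338 CPM in the glycinergic cells of the rolipram, BC11-38, bleached vehicle and unbleached vehicle libraries, against 18.9, 26.9, 7.24 and 26.5 CPM in the other cells of each. Nhlh2, a basic helix-loop-helix factor (chromosome 3, 102010076 to 102015492), had 684, 839, 508 and 634 CPM in glycinergic cells, against 51.0, 74.2, 16.5 and 74.7 CPM in the other cells. Both sets lay apart in all 4 libraries, without overlap. Prdm13, a zinc finger regulator of amacrine cell formation, was at least 7.41 times higher in each library, after 10 CPM was added to both sides. Esr1, which encodes estrogen receptor alpha, was at least 7.07 times higher by the same measure, Tfap2c, an AP-2 family factor, 6.42 times, and Myf6, a helix-loop-helix factor best known from muscle, 5.14 times. Outside the transcription factors, the genes highest by this measure included Slc2a13 (6.41 times), which encodes an inositol transporter, Lamp5 (6.38 times), a synaptic vesicle membrane protein of interneurons that was higher still in AII-like cells (697, 569, 814 and 745 CPM in the glycinergic cells, against 871, 758, 1303 and 1029 CPM), and the calcium-binding protein genes Necab3 (6.34 times) and Hpca (5.81 times). Lgr5, a Wnt pathway receptor, was at least 6.18 times higher, Ptprt, a receptor tyrosine phosphatase, 6.03 times, and Ly6h, a membrane-anchored protein of neurons (chromosome 15, 75551268 to 75567255), 5.46 times. Since the cells were picked from the same counts, these ratios are descriptions.

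Set against the GABAergic amacrine cells, those with Gad1 or Gad2 above 0 and Slc6a9 at 0 (432, 404, 141 and 468 cells), 136 of 8306 genes were at least 2-fold higher in the glycinergic cells in all 4 libraries (1.64%) and 264 were at least 2-fold lower (3.18%), with 10 CPM added to both sides of every fold against a class. Ebf1, the paralogue of Ebf3, had 881, 1023, 567 and 858 CPM in glycinergic cells, against 9.58, 22.6, 0.782 and 16.7 CPM in GABAergic cells. The nuclear factor I gene Nfix had 680, 652, 559 and 585 CPM in glycinergic cells, against 9.89, 9.0, 3.13 and 9.76 CPM in GABAergic cells. The smallest fold over the 4 libraries was 31.7 for Ebf1 and 30.1 for Nfix. Nfib, a second nuclear factor I gene, Lgr5, Prox1, a homeobox factor, and the insulin-like growth factor gene Igf1 were also higher, with smallest folds of 14.8, 16.2, 8.0 and 8.69. C1ql2, a secreted synapse organiser, had 1.04, 4.92, 1.59 and 1.48 CPM in glycinergic cells, against 450, 516, 668 and 481 CPM in GABAergic cells. The homeobox gene Meis2 (39.5, 62.9, 44.6 and 59.2 CPM in glycinergic cells, against 881, 865, 675 and 840 CPM in GABAergic cells), the peptide gene Vip and the GABA transporter gene Slc6a11 were low in the glycinergic cells in the same way, with smallest folds of 12.0, 15.6 and 9.99. Of 33 counted transcription factors on the amacrine list, 9 were higher (Tfap2c, Prox1, Tcf4, Ebf1, Ebf3, Neurod2, Neurod4, Nfib and Nfix) and 7 were lower (Tfap2a, Nr4a2, Meis2, Lhx9, Zfhx3, Id4 and Pou3f1). Of 14 calcium-binding protein genes, 4 were higher (Necab3, Cabp1, Hpca and Ncald) and 1 lower (Vsnl1). Of 46 adhesion and guidance genes 3 were higher (Sdk2, Cntn6 and Sema5a) and 12 lower, and of 40 ribosomal protein genes none passed 2-fold in either direction.

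The nearest class, by the rule itself, is the AII-like one, which meets every condition but has Scn1a or Stac2 above 0 (163, 114, 138 and 177 cells). Of 6992 genes, 43 were at least 2-fold higher in the other glycinergic cells in all 4 libraries (0.615%) and 89 were at least 2-fold lower (1.27%). Gjd2, which encodes connexin 36, had 13.5, 10.8, 15.9 and 10.4 CPM in the other glycinergic cells, against 378, 371, 375 and 314 CPM in AII-like cells. The dopamine D4 receptor gene Drd4 had 18.7, 21.6, 20.7 and 14.1 CPM, against 164, 187, 234 and 159 CPM in AII-like cells. Both genes were lower without overlap, and the secretin gene Sct, Drd2 and Nfia were also lower, with smallest folds of 9.39, 5.11 and 4.68. Cartpt, the precursor of the CART peptides, had 1419, 1069, 2019 and 1265 CPM in the other glycinergic cells, against 515, 212, 247 and 399 CPM in AII-like cells. Ass1, the argininosuccinate synthetase of the arginine pathway, had 82.2, 99.3, 58.9 and 94.0 CPM, against 19.1, 23.8, 10.3 and 22.5 CPM in AII-like cells. Of 28 counted transcription factors on the amacrine list, 5 were higher (Tfap2c, Ebf1, Ebf3, Bhlhe22 and Nfix) and 2 lower (Tfap2a and Nfia). The AII-like side also held genes that lead clusters described below. Ppp1r17, a phosphatase inhibitor, had 95.4, 159, 77.6 and 155 CPM there, against 139, 207, 25.5 and 258 CPM in the other glycinergic cells. Car3, a carbonic anhydrase, had 210, 170, 32.8 and 259 CPM there, against 126, 14.8, 7.96 and 104 CPM. Of the AII-like cells, 206 had 1 UMI of Scn1a or Stac2 and 386 had 2 or more. Whether the 1-UMI rule placed such cells there was not tested.

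**Figure D1:**
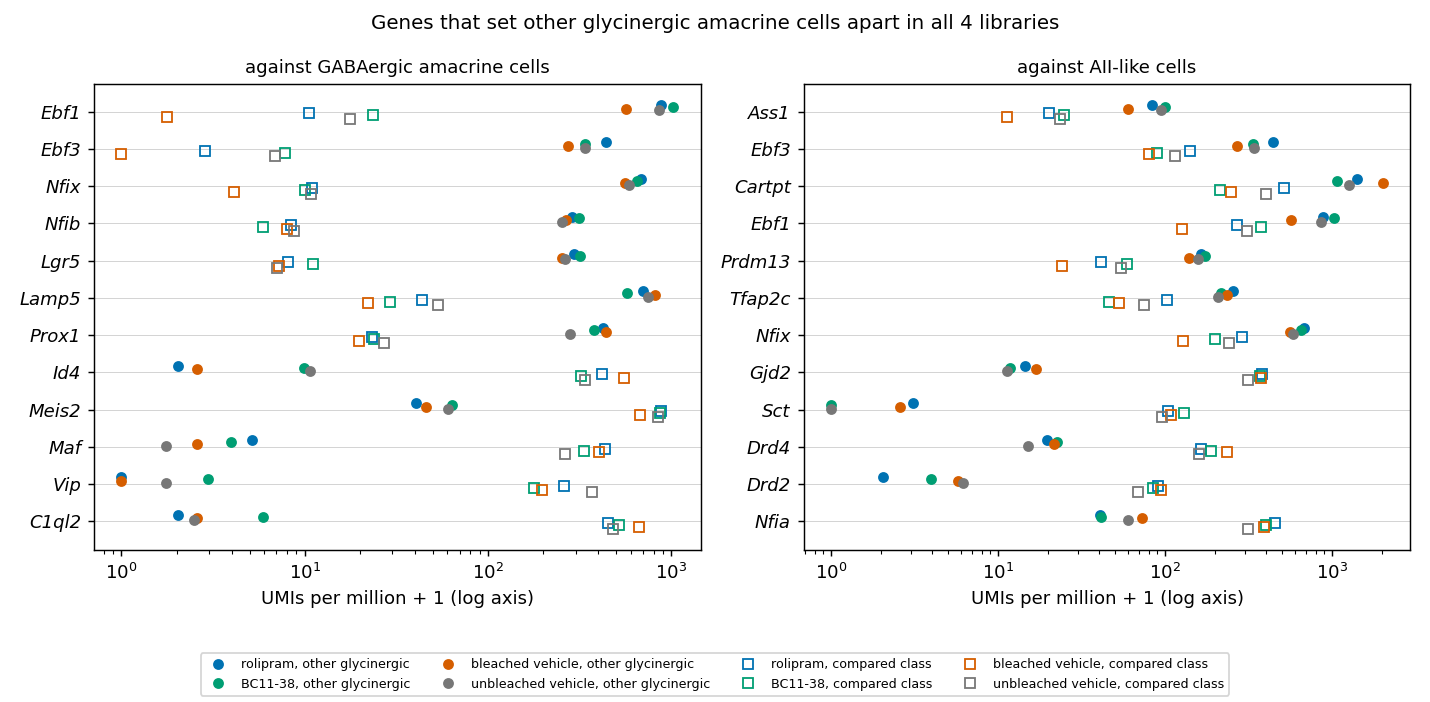
Levels of 12 genes in the other glycinergic amacrine cells (filled circles) and in the compared class (open squares), GABAergic amacrine cells on the left and AII-like cells on the right, as CPM plus 1 on a log axis. Each colour is 1 library; the filled and open symbols of every gene lie apart in all 4 libraries, as for Ebf1 with 881, 1023, 567 and 858 CPM against 9.58, 22.6, 0.782 and 16.7 CPM in GABAergic cells.

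The transmitter genes of the glycinergic cells were read in 622 cells. These were left after cells with horizontal, bipolar or cone markers past the cut-offs given below were set aside. Slc6a9 had 1576, 1173, 1747 and 1052 CPM there with rolipram, BC11-38, bleached vehicle and unbleached vehicle, and Slc32a1 had 474, 456, 545 and 407 CPM. Slc6a5, the second glycine transporter GlyT2, had 77.5, 28.1, 80.1 and 51.3 CPM, and 19.3% of all 675 cells had a UMI of it. Glra2, the glycine receptor alpha 2 subunit, had 205, 168, 193 and 145 CPM, and 52.7% of the cells had a UMI. Glra2 was also the 1 of 4 counted glycine receptor genes that was at least 2-fold higher than in GABAergic cells in all 4 libraries. The AMPA receptor subunit Gria2 had 760, 832, 574 and 720 CPM and the kainate receptor subunit Grik2 216, 244, 160 and 193 CPM. Grik2 was at least 2-fold higher than in GABAergic cells in all 4 libraries, while the metabotropic glutamate receptor genes Grm2, Grm5 and Grm7 were among those lower, of 19 glutamate receptor genes counted. The dopamine D1 receptor gene Drd1 had 144, 94.2, 115 and 100 CPM.

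The class is a mixture. Clustering the 675 cells alone gave 12 clusters, and 11 at a lower resolution (adjusted Rand index 0.735). Cluster leaders are the genes that define a cluster, so they describe it and are not tests. The pair with Cartpt was the main one: cluster 1 (137 cells) was led by Myf6, Cartpt and Necab3, and cluster 2 (115 cells) by Igf1, Esr1, the purinergic receptor gene P2ry1 and Fgf2. These leaders set the pair apart only weakly: Igf1, Esr1 and Fgf2 had 365, 157 and 152 CPM in cluster 1, beside 432, 204 and 204 CPM in cluster 2. At the lower resolution 1 cluster of 253 cells was led by Cartpt, Igf1 and Myf6. Cartpt had 3133 and 2743 CPM in clusters 1 and 2, against at most 84.7 CPM in all other clusters except cluster 5, where it had 2147 CPM. Both also held Tfap2c (461 and 448 CPM), Nfix (915 and 933 CPM), Ebf3 (499 and 648 CPM) and Lamp5 (1039 and 1066 CPM). Slc6a9 stood at 1903 CPM in cluster 1 and 1878 CPM in cluster 2, and the levels in the other clusters ran between 44.5 and 1662 CPM.

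Cluster 3 (94 cells) was led by Nxph2, the neurexin ligand neurexophilin 2, Ptn, the growth factor pleiotrophin, and the thyrotropin-releasing hormone receptor gene Trhr, and it held Tfap2b at 830 CPM and no Ebf3 UMI. Cluster 4 (87 cells) was led by Cntn6, a contactin adhesion protein, the transcription factors Neurod6 and Prdm8 and Meis2, with Cck, the cholecystokinin precursor, at 407 CPM. In cluster 4 Ebf1 had 2154 CPM and Lamp5 no UMI, so Ebf1 spanned clusters with and without the Cartpt, Lamp5 and Tfap2c of the first pair. Cluster 6 (58 cells) was led by Ppp1r17 (2156 CPM), Igfbp5 and Cntn5. Cluster 7 (43 cells) had Gsta4, a glutathione transferase, among its leading genes, and cluster 8 (34 cells) by the protocadherin gene Pcdh17, Igfbpl1 and Hsd11b1. Cluster 9 (21 cells) was led by Car3 (1828 CPM), the vesicular glutamate transporter gene Slc17a8 (607 CPM) and the enkephalin precursor Penk (240 CPM), and held Tfap2b at 1122 CPM, Glra3 at 678 CPM and Ebf1 at 7.06 CPM. Cluster 12 (8 cells) was led by Tac1, the precursor of substance P, at 6162 CPM, and by Rhox5, Gbx2 and Cxcl14. These clusters are called by number and given no cell type name.

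The data went against the label in 3 clusters. Cluster 5 (58 cells, median 3703 UMIs) was led by the photoreceptor genes Pde6h, Rbp3 and Guca1a above a Cartpt-high profile. Cluster 10 (11 cells) was led by Pcp2, Gng13 and Trpm1, and 8 of its 10 leading genes were on the bipolar cell list. Cluster 11 (9 cells, median 24173 UMIs) was led by Lhx1, Tpm3 and Calb1, known in horizontal cells, and had Slc6a9 at 44.5 CPM. No doublet caller was run, and each cluster is given here by its leading genes.

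**Figure D2:**
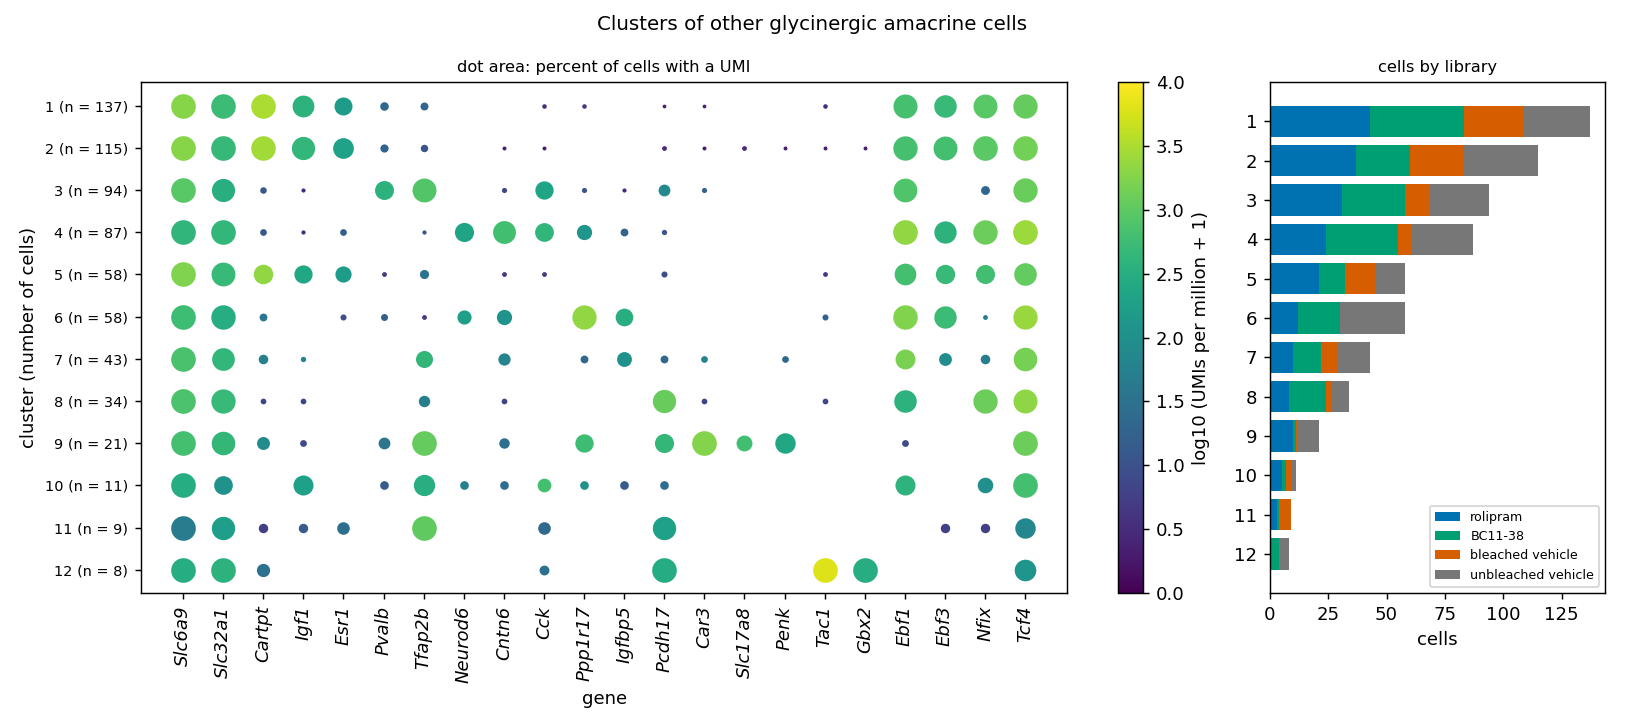
The 12 clusters of the 675 cells (rows) by 22 genes (columns), with dot area for the share of cells with a UMI and colour for log10 of CPM plus 1, and beside it the number of cells of each cluster by library. Cartpt is high in clusters 1, 2 and 5, Ppp1r17 in cluster 6, Car3 in cluster 9 and Tac1 in cluster 12, which held 8 cells.

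Markers of other classes moved with the libraries. In all, 53 of the 675 cells carried Onecut1 or Lhx1 (horizontal cell genes), 3 or more of 10 bipolar markers, or 3 or more of 5 cone markers: 21 cells with rolipram, 9 with BC11-38, 9 with bleached vehicle and 14 with unbleached vehicle. They held 16.7%, 9.13%, 26.4% and 7.71% of the class's UMIs in the same order. In the bleached vehicle library 5 cells with horizontal markers alone held 21.7%. The summed horizontal markers were 707, 379, 1321 and 144 CPM over all cells, and 172, 141, 88.7 and 152 CPM without the 53. The summed cone markers were 113, 130, 57.3 and 899 CPM over all cells, and 75, 76.8, 54.1 and 44.9 CPM without them. The summed bipolar markers were 767, 511, 390 and 365 CPM, and 422, 330, 381 and 279 CPM without them. Rod markers summed to 2714, 2284, 2172 and 2181 CPM, and to 2955, 2330, 2604 and 1773 CPM without the 53 cells. Microglial markers were near 0 (15.5 to 17.7 CPM), with 7 to 10 of 11 genes at 0 in each library, and Chat was at 0 in all 4, as were Gad1 and Gad2, which the rule sets to 0. Each comparison below is therefore given for the 622 cells without the 53 (183, 177, 86 and 176 cells) beside all 675, a choice made after the values were seen. Cells without other-class markers are meant by these cut-offs only. Rod markers, or fewer than 3 bipolar or cone markers, did not set a cell aside. Of the 58 cells of the photoreceptor-led cluster 5, only 7 were set aside.

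**Figure D3:**
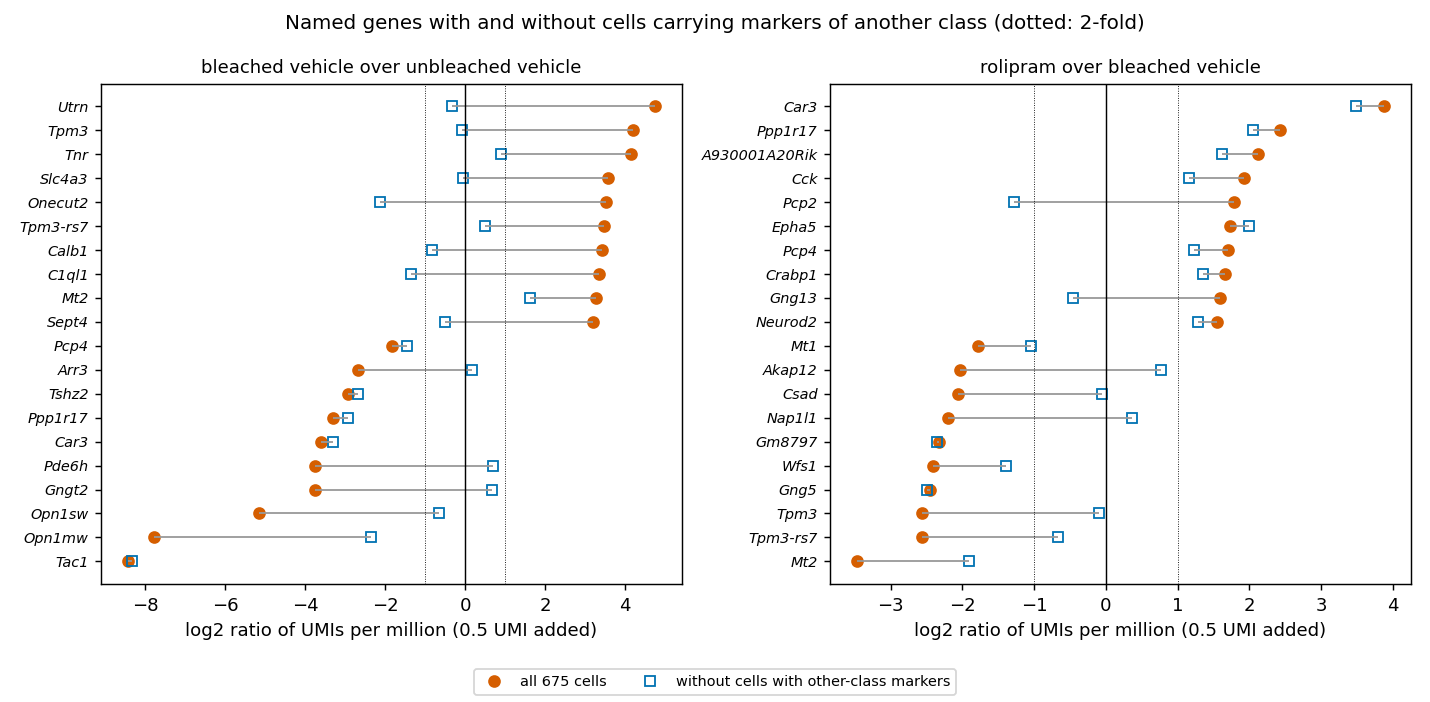
Log2 ratios of CPM (0.5 UMI added) for the named genes of 2 comparisons, in all 675 cells (filled circles) and without the 53 cells that carry markers of another class (open squares); dotted lines mark 2-fold. Horizontal cell genes such as Utrn, Calb1 and Onecut2 change sign without those cells in bleached over unbleached vehicle, whereas Tac1, Ppp1r17 and Car3 keep theirs.

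The class made up 2.58% of all cells with rolipram (2.25 to 2.96%, exact Clopper-Pearson interval), 3.03% with BC11-38 (2.61 to 3.49%), 1.40% in bleached vehicle (1.13 to 1.70%) and 3.34% in unbleached vehicle (2.88 to 3.83%). The bleached vehicle share was the lowest and its interval met none of the other 3. Among cells that met the amacrine conditions the order was gone: the shares were 18.4% (16.2 to 20.8%), 18.1% (15.8 to 20.6%), 18.1% (14.9 to 21.6%) and 16.3% (14.2 to 18.6%), and all 4 intervals overlapped. These conditions are those on Slc32a1 or Tfap2b, Slc17a6, Rp1 and the glial genes, and 1109, 1027, 526 and 1165 cells met them. Of the other glycinergic and AII-like cells together, the other glycinergic ones were 55.6% (50.3 to 60.7%) with rolipram, 62% (56.2 to 67.5%) with BC11-38, 40.8% (34.4 to 47.4%) in bleached vehicle and 51.8% (46.5 to 57.0%) in unbleached vehicle. Against the GABAergic cells the order turned: they were 32.1%, 31.5%, 40.3% and 28.9% of the 2 classes together. A share of dissociated cells cannot tell fewer cells in the retina from fewer cells recovered, and 1 UMI of a defining gene decides membership.

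**Figure D4:**
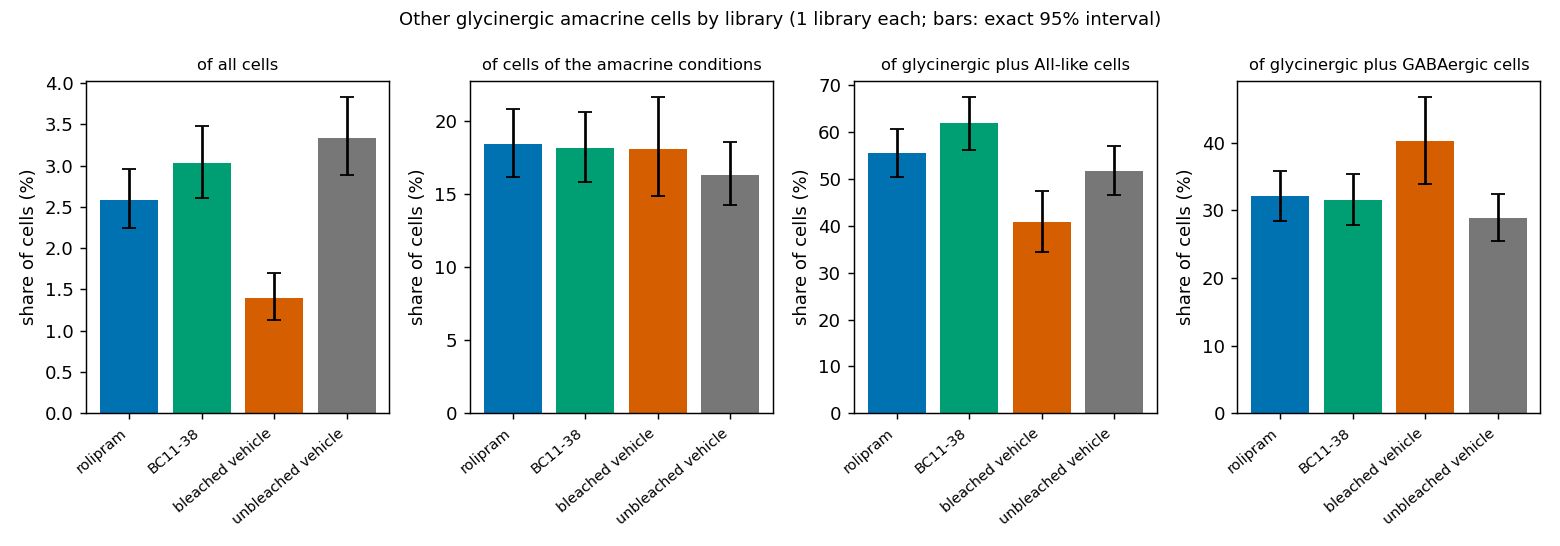
Share of the other glycinergic amacrine cells in 4 denominators by library, with exact 95% binomial intervals for counting error. Bleached vehicle has 1.40% of all cells, against 2.58% with rolipram, 3.03% with BC11-38 and 3.34% in unbleached vehicle, but 18.1% of amacrine cells, beside 18.4%, 18.1% and 16.3%.

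The first comparison set retinae at day 1 after bleaching against unbleached ones. In the 622 cells Cartpt was higher, and Ppp1r17, Tac1, Car3, Cck and Pcp4 were lower, in bleached vehicle. Of 3515 genes with at least 100 UMIs over both libraries, 9 were at least 2-fold higher (0.256%) and 40 at least 2-fold lower (1.14%). Over all 675 cells the counts were 52 higher (1.31%) and 62 lower (1.56%) of 3977, of which 5 and 30 were among those of the 622 cells. The median log2 ratio over all genes counted was -0.01 in the 622 cells.

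Ppp1r17 (chromosome 6, 56017497 to 56032689) had 34.6 CPM in bleached vehicle and 268 CPM in unbleached vehicle, 7.74-fold lower (exact 95% interval 4.69 to 13.7). Tac1 had 0 UMIs in bleached vehicle and 237 UMIs (190 CPM) in 8 cells of unbleached vehicle, of which 1 cell held 37.1%, and was at least 29.3-fold lower when 3 UMIs were set for the 0. Car3 had 10.8 CPM in bleached vehicle and 112 CPM in unbleached vehicle (10.4-fold lower, 4.34 to 32.5). The peptide gene Cck had 32.5 and 110 CPM (3.38-fold lower, 1.98 to 6.21), and Pcp4, a calmodulin-binding protein, 476 and 1301 CPM (2.73-fold lower, 2.37 to 3.16). Crabp1, a retinoic acid binding protein, had 82.2 and 283 CPM in bleached and unbleached vehicle (3.44-fold lower, 2.46 to 4.95), Pcdh17 28.1 and 122 CPM, and the ephrin receptor gene Epha5 26.0 and 116 CPM. Some of these genes stood higher in single clusters: Crabp1 had 841 and 808 CPM in clusters 4 and 6, against at most 124 CPM in the others, and Pcp4 had 3828, 7157 and 12369 CPM in clusters 3, 9 and 12. Within the Cartpt-high clusters 1 and 2, Crabp1 was also lower, with 70.0 CPM in bleached vehicle and 149 CPM in unbleached vehicle (2.13-fold, 1.29 to 3.68). A Ppp1r17 UMI was found in 24 cells with rolipram (11.8%), 37 with BC11-38 (19.9%), 2 of 95 in bleached vehicle (2.11%) and 42 of 190 in unbleached vehicle (22.1%). After every cell was thinned to 2000 UMIs, with 18, 8, 13 and 5 shallower cells left out, the shares were 11.8% with rolipram, 14.0% with BC11-38, 2.44% in bleached vehicle and 21.1% in unbleached vehicle. Rods, which should lack the gene, had a Ppp1r17 UMI in at most 0.519% of cells in any library. The exact interval in bleached vehicle (0.256 to 7.40%) lay below those of the other 3 libraries, the nearest of which began at 7.69%. At 2000 UMIs a cell that separation was lost for rolipram (0.297 to 8.53% in bleached vehicle, beside 7.56 to 17.4% with rolipram). Neurod6, a leader of cluster 4, had a UMI in 10.8%, 11.8%, 2.11% and 11.6% of cells, and in at most 0.147% of rods. A Tac1 UMI was found in 1, 6, 0 and 8 cells, and the 0 of 95 in bleached vehicle allows a share of up to 3.81% by the exact interval, which overlaps those of the other libraries. A Car3 UMI was found in 12, 4, 1 and 11 cells. Its interval in bleached vehicle (0.0266 to 5.73%) also overlapped those of the other libraries. In Xist-negative cells with Y-linked UMIs alone, the log2 ratio of bleached over unbleached vehicle was -2.89 for Ppp1r17 and -4.02 for Car3, against -3.32 and -3.62 over all 675 cells. With Slc6a9 at 2 or more UMIs it was -2.39 for Ppp1r17. With 95 bleached vehicle cells, the level of a gene that leads 1 cluster cannot be separated here from how many cells of that cluster were caught.

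Among the higher genes, Cartpt (chromosome 13, 99898489 to 99901091) had 2593 CPM in bleached vehicle and 1275 CPM in unbleached vehicle (2.03-fold, 1.89 to 2.19). A Cartpt UMI was found in 49.0%, 42.5%, 57.9% and 40.5% of all 675 cells with rolipram, BC11-38, bleached vehicle and unbleached vehicle, and in 48.9%, 39.3%, 61.0% and 33.5% after thinning. Rods had one in 1.64%, 4.07%, 2.79% and 2.45%. Ptprt was 2.14-fold higher (309 and 144 CPM in bleached and unbleached vehicle, 1.71 to 2.69), Ccdc24 2.26-fold (268 and 119 CPM, 1.77 to 2.89) and Igf1 1.83-fold (273 and 149 CPM, 1.45 to 2.30). Ptprt and Igf1 are among the leading genes of the Cartpt-high cluster 2. Clusters 1 and 2 were 55.8% of the cells without other-class markers in bleached vehicle and 33.0% in unbleached vehicle. Within them Ptprt had 434 and 251 CPM and Igf1 392 and 329 CPM. Mt1, a metal-binding metallothionein, had 1370 and 674 CPM (2.03-fold, 1.83 to 2.26), but 1 cell held 37.9% of its bleached vehicle UMIs, and 1 cell held 59.4% of those of Mt2 and 65.7% of those of Gng5. Of 11 counted markers of amacrine types with glycine or with neither transmitter, 0 were 1.5-fold higher and 4 lower (Ppp1r17, Tac1, Cck and Calb2), against 2.9% and 5.09% of all genes. Of 11 cyclic nucleotide genes 0 were higher and 3 lower (Pde1c, Prkaca and Crem), with a median log2 ratio of -0.22. Of 8 immediate early genes 0 were higher and 1 lower (Dusp1), and of 40 ribosomal protein genes none passed 1.5-fold.

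The upstream sequence of the peptide genes Cartpt, Tac1 and Cck, whose levels differed between the libraries, and of the immediate early gene Fos is given to show where letters of the cAMP response element lie. The windows are the 250 bases before the RefSeq start (GRCm38.p6), read 5′ to 3′ on the gene's strand. The motifs searched on both strands were the full element TGACGTCA and its half-site TGACG, which reads as CGTCA on the opposite strand and is contained in the full element. Capitals mark them. Of 32851 promoters in the RefSeq table (windows of the same length), 508 held the full element (1.55%) and 5836 a half-site (17.8%). The Cartpt window is chr13:99900684-99900933 (minus strand), that of Tac1 chr6:7554811-7555060 (plus), that of Cck chr9:121495695-121495944 (minus) and that of Fos chr12:85473640-85473889 (plus).
Cartpt: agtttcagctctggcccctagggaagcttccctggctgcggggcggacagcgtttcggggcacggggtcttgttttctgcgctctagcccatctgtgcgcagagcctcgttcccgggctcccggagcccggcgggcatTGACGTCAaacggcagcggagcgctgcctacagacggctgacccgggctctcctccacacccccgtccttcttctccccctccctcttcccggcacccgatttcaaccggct
Tac1: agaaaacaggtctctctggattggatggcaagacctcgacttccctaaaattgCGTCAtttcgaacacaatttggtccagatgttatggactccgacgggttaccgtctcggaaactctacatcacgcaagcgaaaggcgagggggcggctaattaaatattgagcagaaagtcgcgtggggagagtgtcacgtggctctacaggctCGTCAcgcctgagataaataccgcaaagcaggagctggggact
Cck: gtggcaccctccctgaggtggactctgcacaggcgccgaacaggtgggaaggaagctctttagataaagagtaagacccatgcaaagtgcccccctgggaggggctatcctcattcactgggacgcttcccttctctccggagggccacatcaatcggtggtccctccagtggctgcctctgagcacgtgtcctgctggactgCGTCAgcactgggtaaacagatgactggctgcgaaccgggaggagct
Fos: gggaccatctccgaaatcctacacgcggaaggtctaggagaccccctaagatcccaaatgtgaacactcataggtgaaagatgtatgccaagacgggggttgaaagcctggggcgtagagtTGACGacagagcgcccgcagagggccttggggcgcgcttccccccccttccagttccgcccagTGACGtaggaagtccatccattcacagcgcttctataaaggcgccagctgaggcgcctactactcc
The Cartpt window held the full element, beginning 112 bases before the start. The Tac1 window held half-sites at 197 and 43 bases before the start, the Cck window 1 at 47, and the Fos window 2 at 129 and 66. A match is a description of the letters and says nothing of binding in these cells. Of 26 genes looked up, 19 had a window in the table: 7 held a half-site (Cartpt, Tac1, Cck, Fos, Cntn6, Ebf3 and Slc6a9) and 12 held neither, among them Pde10a, Pde4d, Pcp4, Igf1 and Pcdh17, whose levels also differed between libraries. The windows printed were chosen with these matches known.

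In the cells with rolipram, compared with bleached vehicle, Car3, Ppp1r17, Pcp4 and Nefl were higher and Ly6h, Cartpt and Gm8797 were lower. Of 2630 genes counted in the 622 cells, 14 were at least 2-fold higher (0.532%) and 6 at least 2-fold lower (0.228%). Over all 675 cells it was 32 higher (0.964%) and 36 lower (1.08%) of 3319, sharing 11 and 3 genes with the 622 cells. The bleached vehicle library is the same one as above, so a low value there makes a gene lower in one comparison and higher in the other. Car3 had 130 CPM with rolipram and 10.8 CPM in bleached vehicle (12.0-fold higher, 4.98 to 37.8), and Ppp1r17 146 and 34.6 CPM (4.22-fold, 2.49 to 7.63). The 5 Car3 UMIs in bleached vehicle came from 1 of 95 cells, beside 12 of 204 cells with a UMI with rolipram. The exact intervals of these shares overlapped (0.0266 to 5.73% and 3.08 to 10.0%). Nefl, the light neurofilament, had 166 CPM with rolipram and 32.5 CPM in bleached vehicle (5.12-fold, 2.99 to 9.40). The differentiation factor Neurod2 had 160 and 64.9 CPM (2.46-fold), Pcp4 1121 and 476 CPM (2.35-fold), and the membrane-linked protein gene Marcks 272 and 130 CPM. Ly6h had 845 CPM with rolipram and 1738 CPM in bleached vehicle (2.06-fold lower, 1.86 to 2.28). Cartpt had 1622 and 2593 CPM (1.6-fold lower, 1.48 to 1.73) and Thrsp, a lipogenic regulator, 231 and 480 CPM (2.08-fold lower). The Cartpt-high clusters 1 and 2 were 42.1% of the cells without other-class markers with rolipram and 55.8% in bleached vehicle. Within them Thrsp had 382 and 668 CPM. The part of this mix in the folds was not tested. The gene model Gm8797, whose UMIs may be shared with near-identical copies, had 76.2 CPM with rolipram and 394 CPM in bleached vehicle (5.17-fold lower, 3.85 to 7.02). It was as low in other classes of the rolipram library: 85.6 against 451 CPM in GABAergic cells, 73.3 against 338 CPM in AII-like cells and 55 against 262 CPM in rods. Of 7 immediate early genes counted, 0 were 1.5-fold higher and 1 was lower, Fos, with 379 CPM with rolipram and 584 CPM in bleached vehicle (1.54-fold lower, 1.31 to 1.82), against 3.65% higher and 2.51% lower of all genes. Of 20 amacrine transcription factors 2 were higher (Neurod2 and Sox4) and 0 lower.

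With BC11-38, compared with bleached vehicle, Ly6h and Cartpt were lower again, and 3 phosphodiesterase genes, Pde1c, Pde4d and Pde10a, were higher. Of 2845 genes counted in the 622 cells, 41 were at least 2-fold higher (1.44%) and 10 at least 2-fold lower (0.351%). Over all 675 cells 63 were higher (1.86%) and 50 lower (1.47%) of 3391, sharing 37 and 6 genes with the 622 cells. Ly6h had 547 CPM with BC11-38 and 1738 CPM in bleached vehicle (3.18-fold lower, 2.84 to 3.56). Ndnf, a secreted neurotrophic factor, had 108 and 331 CPM (3.06-fold lower, 2.36 to 3.98), Cartpt 1134 and 2593 CPM (2.29-fold lower, 2.10 to 2.49), Polr2a, the large subunit of RNA polymerase II, 61.7 and 162 CPM (2.63-fold lower), and Lamp5 585 and 1058 CPM (1.81-fold lower). The Cartpt-high clusters 1 and 2 were 33.9% of the cells without other-class markers with BC11-38 and 55.8% in bleached vehicle. Within them Lamp5 had 900 and 1196 CPM and Cartpt 2679 and 3670 CPM. The part of this mix in the folds was not tested. Ppp1r17 had 227 CPM with BC11-38 and 34.6 CPM in bleached vehicle (6.56-fold higher, 3.95 to 11.7). Tac1 had 182 UMIs (197 CPM) in 6 cells with BC11-38 and 0 in bleached vehicle, at least 30.3-fold higher when 3 UMIs were set for the 0. That bound covers the counting of UMIs and not how many such cells were caught. By cells, 6 of 186 with BC11-38 (1.19 to 6.89%) and 0 of 95 in bleached vehicle (0 to 3.81%) had a UMI, and these intervals overlapped. The genes highest by their interval were lens crystallins: Crygb had 233 CPM with BC11-38 and 0 in bleached vehicle, but 92.6% of its UMIs were in 1 cell. Between 76.7% and 92.6% of the UMIs of Cryaa, Crygb, Crygc, Crygd, Cryba1, Crybb2 and Crygs came from 1 cell each, and rods of the BC11-38 library also had them at 37.2 to 96.1 CPM, against 0.906 to 14.5 CPM in bleached vehicle rods. A Crygb UMI was found in 4.84% of the glycinergic cells, 4.95% of GABAergic cells and 2.99% of rods with BC11-38. The pericyte gene Rgs5 (110 CPM with BC11-38, 0 in bleached vehicle) had 98% of its UMIs in 1 cell.

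Of 9 cyclic nucleotide genes counted with BC11-38, 3 were 1.5-fold higher than in bleached vehicle and 0 were lower, with a median log2 ratio of 0.38, against 5.31% higher and 4.5% lower of all genes. Pde10a, a phosphodiesterase for cAMP and cGMP, had 410 CPM with BC11-38 and 227 CPM in bleached vehicle (1.80-fold, 1.45 to 2.26). Pde1c, a calmodulin-dependent phosphodiesterase, had 105 and 39.0 CPM (2.69-fold, 1.62 to 4.74), and Pde4d, a member of the family that rolipram inhibits, 120 and 71.4 CPM (1.68-fold, 1.13 to 2.56). Over the 4 libraries Pde4d had 77.5, 120, 71.4 and 103 CPM and Pde10a 295, 410, 227 and 274 CPM with rolipram, BC11-38, bleached vehicle and unbleached vehicle, so that BC11-38 was the highest and bleached vehicle the lowest for both. The other members of the PDE4 family had 65.0, 56.3, 60.6 and 44.9 CPM (Pde4a), 77.5, 108, 82.2 and 89.0 CPM (Pde4b) and at most 2.50 CPM (Pde4c). Pde11a, the gene of the enzyme that BC11-38 inhibits, had 0 UMIs in all 675 cells. GABAergic cells had it at 2.16, 2.18, 4.69 and 11.4 CPM. Of 7 immediate early genes, 0 were 1.5-fold higher with BC11-38 and 4 were lower, with a median log2 ratio of -0.59. They were Fos (313 CPM with BC11-38, 584 CPM in bleached vehicle, 1.87-fold lower, 1.58 to 2.21), the AP-1 gene Junb (142 and 214 CPM, 1.51-fold, 1.15 to 1.98), the zinc finger gene Egr1 (154 and 249 CPM, 1.62-fold, 1.26 to 2.09) and Btg2 (56.3 and 108 CPM, 1.92-fold, 1.28 to 2.89). Of 6 glutamate receptor genes 2 were higher (Grik2 and Grin2b) and 0 lower. Of 22 amacrine transcription factors 3 were higher (Neurod2, Neurod4 and Bcl11a) and 1 lower (Neurod1), and of 40 ribosomal protein genes none passed 1.5-fold.

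Rolipram and BC11-38 were given at the same dose and time, so their libraries are set side by side. Each drug is 1 library, so drug and library cannot be told apart here either. Of 3583 genes counted in the 622 cells, 8 were at least 2-fold higher with rolipram (0.223%) and 17 at least 2-fold lower (0.474%), and over all 675 cells 19 were higher (0.472%) and 18 lower (0.447%) of 4023. Car3 had 130 CPM with rolipram and 16.2 CPM with BC11-38 (8.01-fold higher, 4.64 to 14.8), Nefl 166 and 62.8 CPM (2.65-fold, 1.93 to 3.67), and Calr, the calcium-binding chaperone calreticulin, 656 and 379 CPM (1.73-fold, 1.51 to 1.99). Tac1 had 1.25 CPM with rolipram and 197 CPM with BC11-38, with a UMI in 1 of 204 and 6 of 186 cells. The crystallins and Rgs5 were lower with rolipram, in the single cells described above. Of 12 cyclic nucleotide genes 1 was 1.5-fold higher with rolipram (Prkar1b) and 1 lower, Pde4d (1.55-fold, 1.13 to 2.15), against 2.51% and 2.12% of all genes. Of 8 immediate early genes 3 were 1.5-fold higher with rolipram than with BC11-38 (Egr1, 1.51-fold, 1.21 to 1.90, Dusp1, 1.59-fold, and Btg2, 1.80-fold, 1.25 to 2.60) and 0 were lower. Car3 leads cluster 9, which held 10 cells with rolipram and 1 with BC11-38. A Car3 UMI was found in 12 of 204 cells with rolipram and 4 of 186 with BC11-38. Their exact intervals overlapped (3.08 to 10.0% and 0.589 to 5.41%). In AII-like cells the Car3 levels of the drug libraries, given above, lay closer together. A single UMI of Scn1a or Stac2 decides which class a cell joins, and its part in these Car3 levels was not tested.

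Clusters 1 and 2 together, without cells that carry markers of another class, had 77, 60, 48 and 58 cells. That was 42.1%, 33.9%, 55.8% and 33.0% of the cells without such markers in each library. The pair allowed the same genes to be read within these clusters alone. In bleached over unbleached vehicle 1 gene was at least 2-fold higher (0.0596% of 1677, Socs2) and 8 lower (0.477%), Xist among them. In rolipram over bleached vehicle 6 were higher (0.446% of 1346, Xist and the photoreceptor gene Pdc among them) and 3 lower (0.223%, Cadm3, Gm8797 and Ly6h). In BC11-38 over bleached vehicle 6 were higher (0.459% of 1306, among them Pde10a and Plch1, but also Xist and Pdc) and 3 lower (0.23%, Cadm3, Ly6h and Egr1). Between rolipram and BC11-38 2 were higher and 2 lower (0.13% of 1539 each way).

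Ly6h had 1047 CPM in these Cartpt-high cells with rolipram, 622 CPM with BC11-38, 2235 CPM in bleached vehicle and 1803 CPM in unbleached vehicle. It was 3.59-fold lower with BC11-38 than in bleached vehicle (3.09 to 4.2), 2.13-fold lower with rolipram (1.88 to 2.42) and 1.24-fold higher in bleached than in unbleached vehicle (1.12 to 1.37). Per cell, the lower and upper quartiles were 5.79 and 15 Ly6h UMIs per 10000 with rolipram, 3.66 and 9.02 with BC11-38, 14.1 and 28.2 in bleached vehicle and 10.0 and 23.1 in unbleached vehicle, so that the upper quartile with BC11-38 lay below the lower quartile of both vehicle libraries. GABAergic cells had Ly6h at 159, 174, 160 and 176 CPM and AII-like cells at 311, 225, 231 and 416 CPM, without that order, and rods had it at 7.21, 6.09 and 16.9 CPM with rolipram, BC11-38 and bleached vehicle. Pde10a had 366, 556, 252 and 342 CPM in the Cartpt-high cells (2.21-fold higher with BC11-38 than in bleached vehicle, 1.68 to 2.93) and Pde4d 80.5, 161, 70.0 and 127 CPM (2.30-fold, 1.37 to 4.03). Fos had 447, 382, 696 and 834 CPM (1.82-fold lower with BC11-38, 1.46 to 2.28, and 1.56-fold lower with rolipram, 1.26 to 1.92, both against bleached vehicle), and Egr1 234, 142, 311 and 210 CPM (2.19-fold lower with BC11-38, 1.54 to 3.15). The median Fos value per cell differed less between the bleached libraries, with 2.04, 2.76, 2.94 and 7.55 UMIs per 10000 in the same order. Its quartiles overlapped: 0 and 7.28 with rolipram, 0.858 and 5.44 with BC11-38, and 0 and 8.70 in bleached vehicle. Socs2, an inhibitor of cytokine signalling, had 65.0, 27.3, 231 and 106 CPM, from 25, 10, 66 and 56 UMIs, 2.18-fold higher in bleached than in unbleached vehicle (1.5 to 3.17). Jun had 23.4, 10.9, 115 and 22.7 CPM, from 9, 4, 33 and 12 UMIs, too few to be counted by the 100-UMI rule. Nefl had 281, 125, 42.0 and 259 CPM, 6.17-fold lower in bleached than in unbleached vehicle (3.42 to 12.2) and 6.68-fold higher with rolipram than in bleached vehicle (3.67 to 13.3). Cartpt, which defines these clusters, had 2915, 2679, 3670 and 2665 CPM there, given as a description. Gm8797 was again lowest with rolipram (80.5, 275, 371 and 516 CPM). Rod RNA, depth and the sex of the mice also differed between the libraries, as given above, and their part in these differences was not tested.

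**Figure D5:**
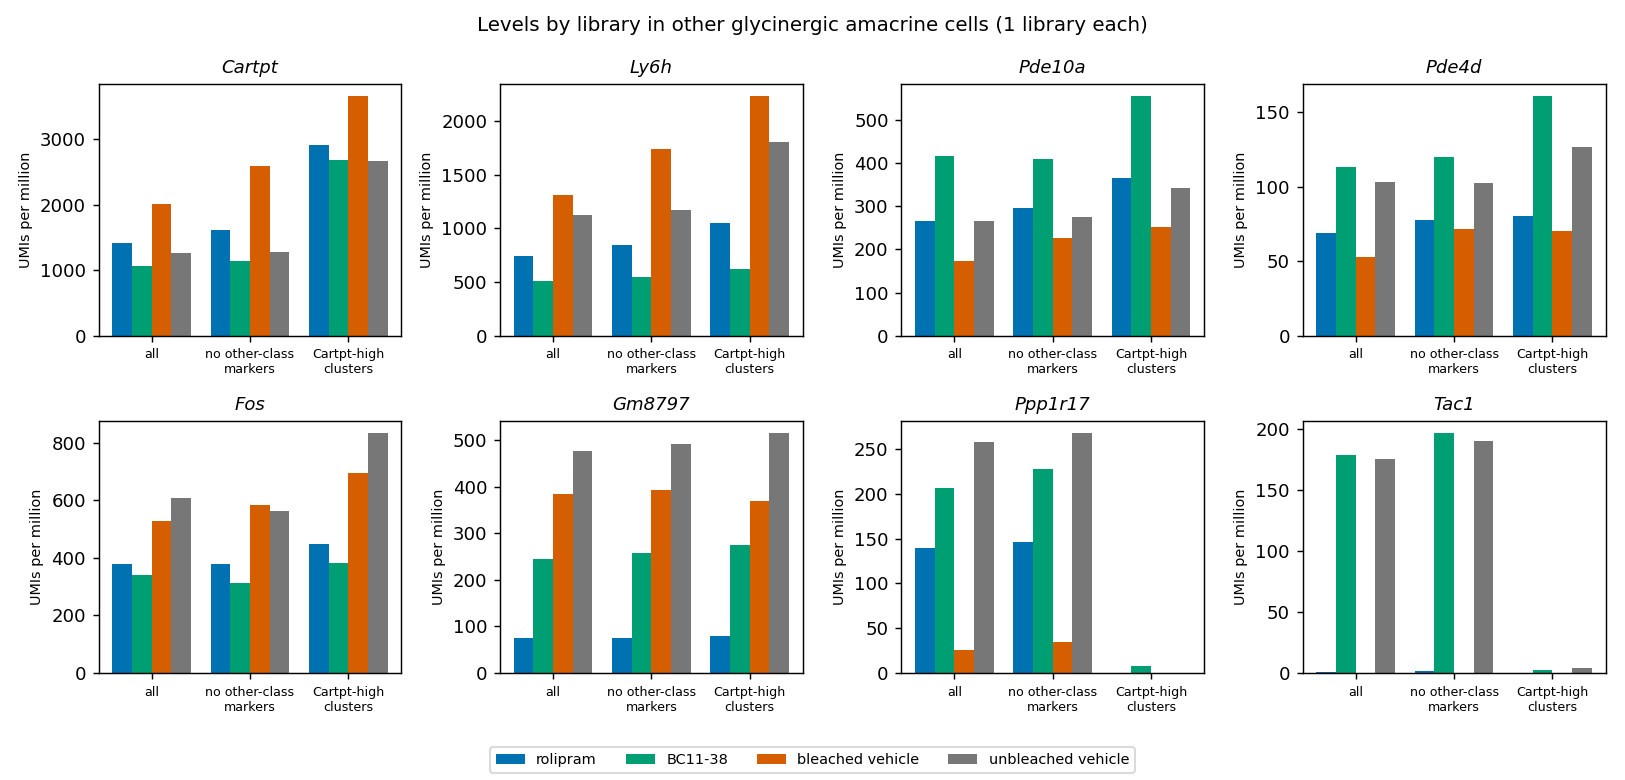
Levels of 8 genes by library in CPM, in all 675 cells, in the 622 without markers of another class, and in the Cartpt-high clusters 1 and 2; each bar is 1 library, with no error bar because there is no replicate. Ly6h stands at 1047 CPM with rolipram and 622 CPM with BC11-38, against 2235 and 1803 CPM in bleached and unbleached vehicle in the Cartpt-high clusters, and Ppp1r17 and Tac1 are at or near 0 there.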

How the data were processed

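Single-cell RNA-seq was deposited for 4 libraries of papain-dissociated retinae, made with 10x v3 reagents, per the labels' protocols. The pooling of 4 retinae of 2 mice and about 15000 loaded cells are per the series' design text, which names 5 groups; 1 was not analysed here. Cell Ranger 6.0.1, Seurat 3.2.2 and mm10 are named per the submitters' processing notes. How strand and introns were counted is not given in the sources used here, so genes that overlap or have near-identical copies are uncertain. The authors scaled each cell's UMIs to 10000, added 1 and deposited the natural log. UMIs were recovered from them (100% of values within 0.001 of a whole number), although the design had assumed counts. UMIs were summed per library over the cells of the class and compared as CPM with exact conditional Poisson intervals (95%), which hold no variation between mice.

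Genes with 100 or more UMIs summed over a pair of libraries were counted, and called at 2-fold with 0.5 UMIs added. Gene lists used 1.5-fold. A 0 was set to 3 UMIs for a bound. Genes named for each comparison were the 10 higher and 10 lower by the interval bound nearest 1, outside the rule genes, Xist, Tsix and Y-linked genes and genes higher in rods, for all cells of the class and for those without other-class markers, and a selection of them is printed. Identity genes were the 25 with the highest lowest-of-4 ratio and at least 20 UMIs in the class. List genes that make up a count were also named, and genes of the Cartpt-high clusters, and cluster leaders, were chosen after their values were seen. Members and lists were chosen with earlier results of these data known. Clusters came from 1500 variable genes, 20 components, 15 neighbours and Leiden resolution 1 (0.5 as the alternative), on genes in at least 5 cells. No doublet caller was run; cells above 2 times the median depth or with other-class markers were left out as alternatives. Interval functions were tested on simulated data. Gene coordinates are from GENCODE M21 (mm10). Software was Python 3.11.15 with numpy 2.4.6, scipy 1.17.1, pandas 2.3.3, scanpy 1.11.5, igraph 0.11.9 and matplotlib 3.10.9.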

Additional observations from a re-analysis of the deposited data

How the results depend on the processing

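No paired analysis was possible because each group has 1 library. Over all 675 cells 114, 68, 113 and 37 genes passed 2-fold in bleached over unbleached vehicle, rolipram over bleached vehicle, BC11-38 over bleached vehicle and rolipram over BC11-38. In the same order the counts were 276, 198, 298 and 107 at a minimum of 50 UMIs, 38, 26, 49 and 14 at 200 UMIs, 49, 30, 53 and 24 with Slc6a9 at 2 or more UMIs, 64, 27, 66 and 22 in Xist-negative cells that had Y-linked UMIs, and 15, 11, 23 and 12 after thinning to 2000 UMIs. In the first 3 comparisons they were 63, 34 and 57 without cells above 2 times the median depth, and 49, 20 and 51 without other-class markers. Settings with fewer cells or UMIs leave fewer genes over the minimum by construction. With trimmed-mean scaling (115, 68, 115 and 38), with each cell weighted equally (106, 60, 101 and 40) and without bipolar-marked cells (105, 48, 87 and 30) they stayed within 1.5 times. Equal weighting and the exclusion of other-class markers were chosen after seeing the data. With rolipram, BC11-38, bleached vehicle and unbleached vehicle, the share of all cells was 2.18%, 2.59%, 1.16% and 2.63% with Slc6a9 at 2 or more UMIs, 3.21%, 3.34%, 2.09% and 4.58% after thinning, and 3.74%, 4.53%, 2.07% and 5.31% of cells with Rp1 under 15.

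Without deep cells and without other-class markers, log2 ratios of bleached over unbleached vehicle reversed to -0.32 and -0.34 for Utrn, -0.69 and -0.83 for Calb1, -2.16 and -2.13 for Onecut2, -1.43 and -1.37 for C1ql1 and -0.46 and -0.51 for Sept4. With Slc6a9 at 2 or more UMIs and without other-class markers they reversed to 0.49 and 0.70 for Pde6h and 0.23 and 0.16 for Arr3, and without the markers to 0.66 for Gngt2. In rolipram over bleached vehicle, leaving out bipolar-marked and then all other-class cells gave -0.77 and -1.28 for Pcp2 and -0.33 and -0.46 for Gng13, and leaving out deep and then other-class cells gave 0.37 and 0.37 for Nap1l1 and 0.85 and 0.77 for Akap12. In BC11-38 over bleached vehicle leaving out deep and then other-class cells gave 1.14 and 1.15 for C1ql1, 0.44 and 0.57 for Nap1l1, 1.54 and 1.55 for Utrn and 1.15 and 0.94 for Akap12, and leaving out other-class cells gave 0.11 for Tpm3 and 0.27 for Slc4a3. In rolipram over BC11-38 Pcp2 was -1.07 in Xist-negative cells that had Y-linked UMIs, and -0.32 without other-class cells. The cause was not tested. Of all single-gene values under these settings, 250 stayed close, 115 moved and 35, given above, reversed. With 95 bleached vehicle cells, a gene with no UMI there may still reach 3 UMIs by counting error.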
